A study of Mus musculus with 4 samples.

Results

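The 41 genes described here were interferon-stimulated genes, genes induced by type I or type II interferon and known to be raised late in thymocyte maturation. They were taken by name from a list, with no threshold on the measured values, and all 41 were found among the 24984 genes of the deposited table. Their transcriptional output was measured by TTchem-seq, which enriches and sequences the RNA that cells synthesise while 4-thiouridine is briefly supplied, so that fragments over the whole gene, introns included, report recent transcription. The cells were double positive (DP) thymocytes, the stage of T cell development that expresses both CD4 and CD8, from mice of C57BL/6 background aged 6 to 8 weeks. Both genotypes carried floxed Tox4 alleles, labelled Tox4;F/F. The control group (WT) had no Cre, and the conditional knockout group (cKO), labelled Tox4;F/F;Lck+, carried Cre under the proximal Lck promoter, active from an early thymocyte stage, which deletes Tox4 exons 4 to 6. Each genotype had 2 libraries, and cells had been rested for 0.5 h in fresh medium before labelling. The labels gave no interferon treatment in either group, so the levels are those of cells without added interferon.

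Type I interferons act through the receptor chains IFNAR1 and IFNAR2 and the kinases JAK1 and TYK2, which activate transcription factors of the STAT family. A complex that holds STAT2 and IRF9 then binds the interferon-stimulated response element (ISRE). Interferon gamma acts through IFNGR1 and IFNGR2 and the kinases JAK1 and JAK2, and leads to STAT binding at the gamma-activated site (GAS). In the thymus, type I interferon made by medullary cells is known to raise interferon-stimulated genes as thymocytes mature past the DP stage.

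The sequences of the promoters that hold motifs of this pathway are shown first. The RefSeq promoter windows of the mouse build GRCm38.p6, from 250 bases before to 50 bases after an annotated start, were searched on both strands for an ISRE core and a GAS. The ISRE core was taken as GAAA, any 2 bases and GAAA, which reads TTTC, any 2 bases and TTTC on the other strand. The GAS was taken as TTC, any 3 bases and GAA, which reads alike on both strands. Windows were given for 32 of the 41 members, the others being Mx1, Mx2, Oas2, Usp18, Dhx58, Rtp4, Parp9, Parp14 and Zbp1. An ISRE core was found in 17 of these 32 genes (53.1%), against 3.99% of all 27025 genes with a window. A GAS was found in 8 of the 32 (25%), against 9.55% of all genes. On the further gene lists compared at the end, 27.6% of other interferon-induced genes with a window and 28.6% of upstream pathway genes held a GAS, and 62.1% and 14.3% an ISRE core. Both motifs were found in 5 members, and 3 members, Irf1, Ifi35 and Adar, held a GAS alone. A match describes the letters of the window and is not a measured binding site.

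The sites below are those of members on which the later comparisons turn, written 5′ to 3′ in gene orientation, with matched letters in capitals. Isg15 is shown because its matches overlap in a run of 3, Ifit1 for a pair of separate matches, and Bst2 because its ISRE core and its GAS share letters. Igtp carried both motifs side by side, Gbp3 and Rsad2 were among the members with the highest fold changes, and Irf1, Ifi35 and Adar stand for the GAS alone.
Isg15, ISRE core (chr4:156200871-156200900, minus strand): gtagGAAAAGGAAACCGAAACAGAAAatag
Ifit1, ISRE core (chr19:34640785-34640814, plus strand): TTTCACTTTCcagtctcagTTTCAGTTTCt
Rsad2, ISRE core (chr12:26456553-26456582, minus strand): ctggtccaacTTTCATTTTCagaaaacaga
Gbp3, ISRE core (chr3:142559992-142560021, plus strand): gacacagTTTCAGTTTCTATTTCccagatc
Igtp, ISRE core (chr11:58199512-58199541, plus strand): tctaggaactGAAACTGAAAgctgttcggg
Igtp, GAS (chr11:58199501-58199530, plus strand): aactagccatTTCTAGGAActgaaactgaa
Bst2, ISRE core (chr8:71537580-71537609, minus strand): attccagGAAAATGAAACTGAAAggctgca
Bst2, GAS (chr8:71537589-71537618, minus strand): tctaggggcaTTCCAGGAAaatgaaactga
Irf1, GAS (chr11:53769914-53769943, plus strand): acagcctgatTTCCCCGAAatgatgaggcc
Ifi35, GAS (chr11:101448409-101448438, plus strand): agaagcagaaTTCACAGAAatgaaagtgga
Adar, GAS (chr3:89730730-89730759, plus strand): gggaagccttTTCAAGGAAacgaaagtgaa

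The first ISRE match of Isg15 began 78 bases before its start, that of Ifit1 104 bases before and that of Igtp 34 bases before. In Adar and Ifi35 the GAS lay downstream of the annotated start. Adar has 3 windows, and the one with the GAS belongs to a start inside the gene, which spans chr3:89715022-89753455.

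**Figure D1:**
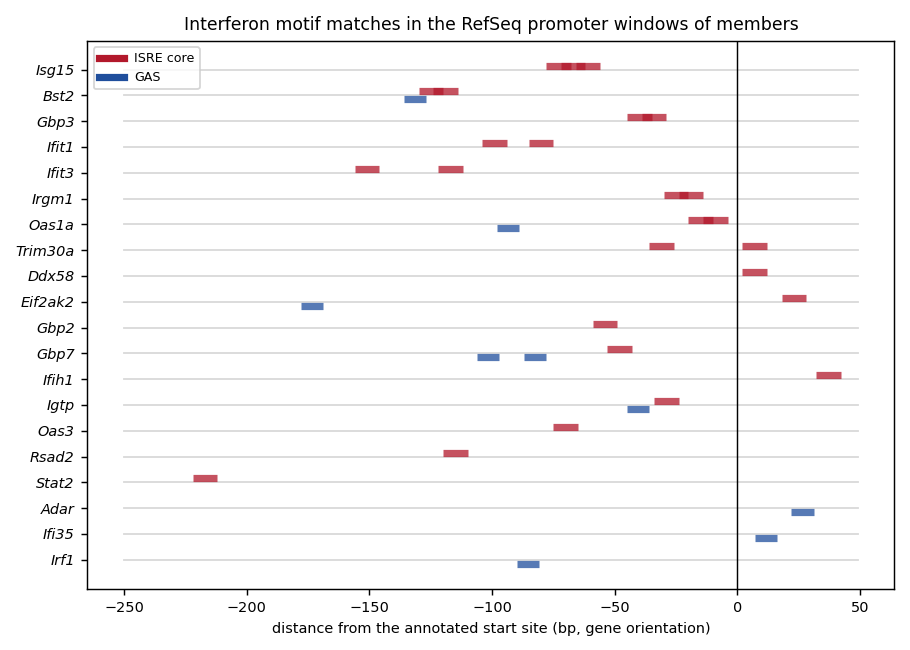
Positions of ISRE core matches (red) and GAS matches (blue) in the promoter windows of the 20 members with a match; the x axis is the distance in bp from the annotated start, in gene orientation, with the start at 0. ISRE cores occur in 17 members and GAS matches in 8, and most of them lie upstream of the start.

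The libraries held between 38429786 and 48690591 fragments, and the members took between 0.0979% and 0.105% of them. Levels are given in CPM, counts scaled to a common library total. The 12 DP markers, Cd4, Cd8a and Rag1 among them, were all transcribed and summed to between 6512 and 7385 CPM, with Rag1 and Cd8a passing the test as lower in cKO. The 14 markers of mature single positive cells summed to 715 and 699 CPM in WT and to 724 and 638 CPM in cKO. Of these, Il7r and Runx3, for example, passed the test as higher in cKO and Ccr7 as lower. Tox4 was at 74.0 and 70.3 CPM in WT and 59.3 and 57.2 CPM in cKO (adjusted p = 0.0453, DESeq2). This count takes in the whole gene and not the deleted exons alone, and so is a weak check of the labels. These calls of Tox4, Rag1, Cd8a, Il7r, Runx3 and Ccr7 were lost by edgeR, with adjusted p from 0.103 to 0.291, and by voom, with adjusted p from 0.0868 to 0.289. WT replicate 1 stood apart by Xist, the RNA of the inactive X chromosome, at 172 CPM against at most 2.36 CPM in the other libraries. Xist is made in female cells, so by this gene the libraries were not alike in sex, whereas the methods describe gender-matched littermates.

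The members spanned a wide range of output. Per kb of counted length, averaged over all libraries, Irf1 was highest at 9.43 CPM per kb, followed by Igtp at 8.59, Irf9 at 4.62, Trim25 at 4.41 and Sp100 at 4.18. Ifi44 was lowest, at 0.0113 CPM per kb, and Mx1 was next at 0.0177. The first group comprised a pair of transcription factors, a GTPase, a ubiquitin ligase and a nuclear body protein, while the classic effectors Mx1, Oas1a, Ifit1 and Oas2 were all near the bottom of the order. In CPM, 35 members had a mean of at least 1, and the other 6, Isg15, Ifit1, Ifit3, Mx1, Oas1a and Ifi44, were below it. No member was at 0 in any library. The members' sum was 1051 and 979 CPM in WT and 1030 and 986 CPM in cKO, so that the WT libraries enclosed both cKO libraries (1015 ± 50.7 and 1008 ± 31.5, SD, n = 2 each). In bulk samples fewer expressing cells and less RNA per cell cannot be told apart.

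**Figure D2:**
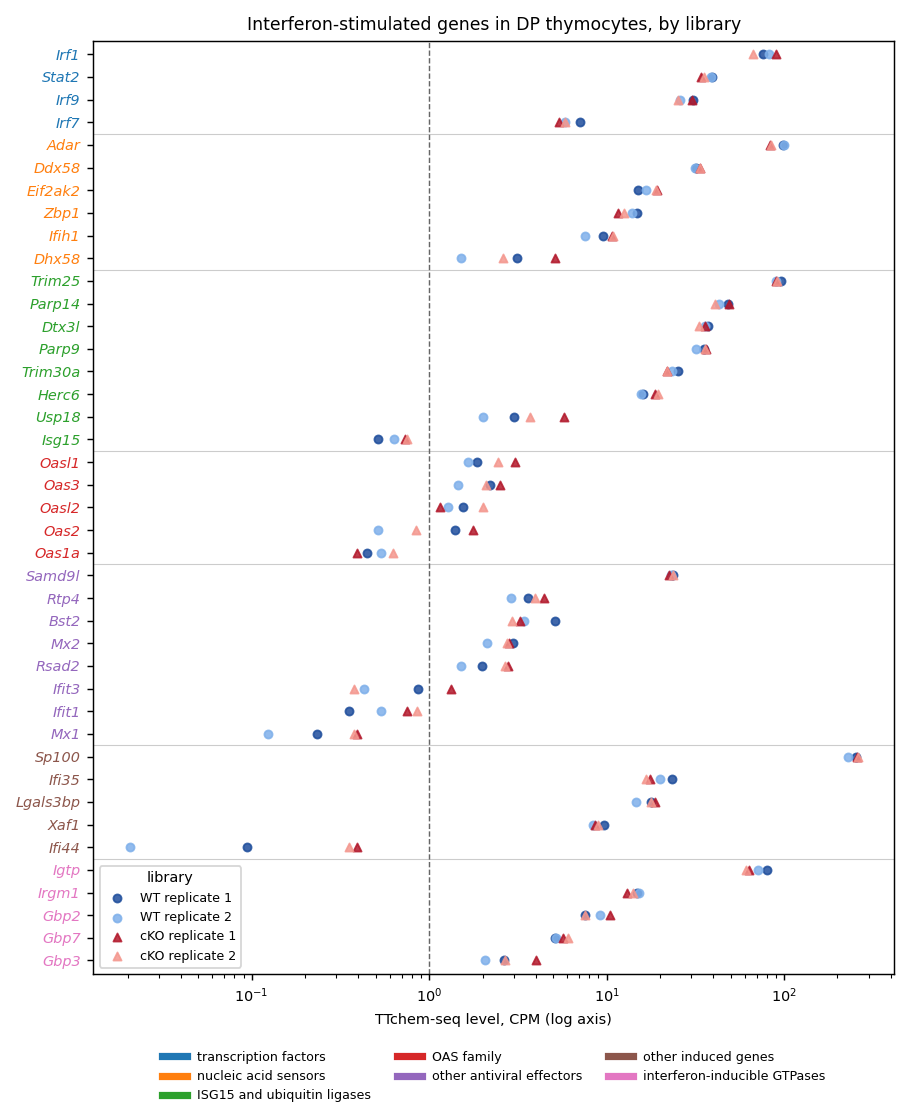
Level of each of the 41 members in each library, in CPM on a log axis, ordered by role (name colours) and by mean level; circles are WT and triangles cKO, and the dashed line marks 1 CPM. Sp100 lies between 229 and 261 CPM, Ifi44 is below 1 CPM in every library, and for most members the 4 libraries lie close together.

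The comparison between genotypes asked which members differed in output when Tox4 was deleted. With the DESeq2 Wald test, with the study's criteria (adjusted p under 0.05, 1.2-fold or more, mean CPM of 1 or more), 0 of the 35 members passed, where 3.71% of the 11625 genes tested passed (2.14% higher and 1.57% lower in cKO). edgeR's quasi-likelihood test also called 0 members, where it called 0.499% of the genes tested. At an unadjusted p under 0.05 there were 4 members by DESeq2, Usp18 higher and Igtp, Adar and Ifi35 lower in cKO, where 13.5% of all genes were under that value, 7.2% higher and 6.31% lower. edgeR gave 6 members under it, where it gave 15.6% of all genes, and limma voom gave 5, where it gave 15.8% of all genes, and called 0, where it called 0.525%. The median log2 fold change of the 35 members was 0.10, beside 0.00 over all genes, with 19 members higher and 16 lower, where 50.2% of all genes were higher. That median was 0.02 without WT replicate 2 and 0.03 without cKO replicate 1, and was 0.10 without either of the other libraries. In 13 members both cKO libraries exceeded both WT libraries (37.1%, against 24.9% of all genes), and in 8 both were lower (22.9%, against 24% of all genes). The genotypes overlapped in the other 14, and 48.9% of all genes were without overlap. With 2 libraries per genotype only large or tight differences could pass: the median SE of the members' log2 fold change was 0.17, so a missed threshold does not show that the genotypes were alike.

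**Figure D3:**
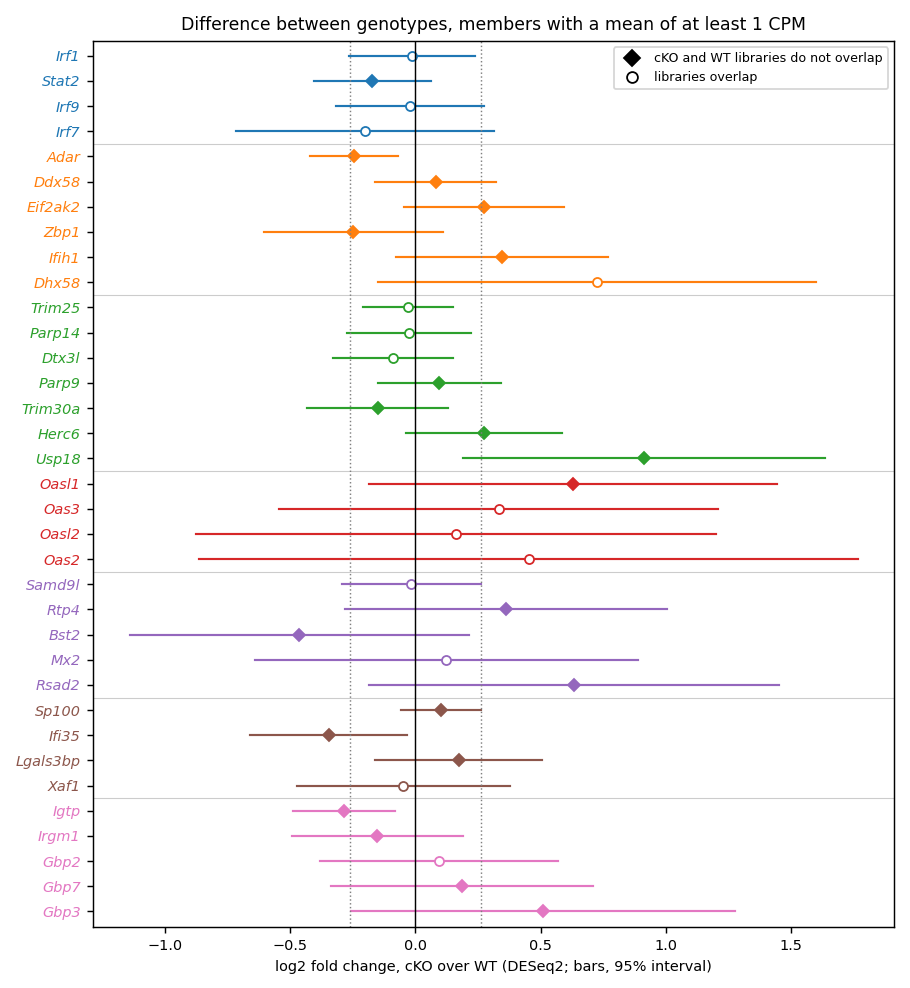
log2 fold change of cKO over WT (DESeq2) for the 35 members with a mean of at least 1 CPM, by role, with bars for the 95% interval; filled diamonds mark members whose cKO and WT libraries do not overlap, open circles those that overlap, and dotted lines the 1.2-fold bounds. Usp18 has the highest value, 0.91, Bst2 the lowest, -0.46, and no member passed the adjusted test.

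Of the transcription factors, none of the 4 passed and all had a fold change near or below 0. Irf1, a factor that binds ISRE-like sites and is induced by interferon gamma, was at 76.1 and 82.1 CPM in WT and at 90.3 and 66.9 CPM in cKO. The cKO libraries thus lay on both sides of the WT libraries (log2 fold change -0.01, SE 0.13, adjusted p = 0.986, DESeq2). Its sign turned when single libraries were left out, between -0.24 and 0.18. Irf9, the DNA-binding partner of STAT2, was at 30.5 and 25.8 CPM in WT and 30.4 and 25.2 CPM in cKO, 2 nearly equal pairs (-0.02, SE 0.15), with values between -0.16 and 0.11 without single libraries. Stat2 was at 39.4 and 38.7 CPM in WT and at 34.0 and 35.4 CPM in cKO, which was lower in both cKO libraries (-0.17, SE 0.12, adjusted p = 0.576, DESeq2). Stat2 overlaps Apof on the same strand, so some of its fragments may belong to either gene. Irf7, the factor that amplifies type I interferon production, was at 7.08 and 5.83 CPM in WT and 5.41 and 5.83 CPM in cKO (-0.20, SE 0.26), with -0.06 when WT replicate 1 was left out and -0.33 when WT replicate 2 was.

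The nucleic acid sensors, a group that here includes the editing enzyme gene Adar, split between both directions. The RIG-I-like receptors, helicases that detect viral RNA in the cytosol, were higher in cKO on average. Ddx58, which encodes RIG-I, was at 32.1 and 31.6 CPM in WT and 33.8 and 33.7 CPM in cKO, a small separation (0.08, SE 0.12, adjusted p = 0.861, DESeq2). Ifih1, which encodes MDA5, was at 9.52 and 7.56 CPM in WT and 10.8 and 10.9 CPM in cKO (0.35, SE 0.22, adjusted p = 0.512), or 0.19 without WT replicate 2. Dhx58, which encodes LGP2, the member of the family without signalling domains, was at 3.14 and 1.52 CPM in WT and 5.10 and 2.62 CPM in cKO, so that the spread within each genotype was as wide as the difference and the libraries overlapped (0.73, SE 0.45, adjusted p = 0.503). Without cKO replicate 1 the value was 0.18, and without WT replicate 1 it was 1.33. Eif2ak2, which encodes the RNA-activated kinase PKR, had a value of 0.27 (SE 0.16) and its libraries did not overlap. Adar, the RNA editing enzyme that marks self RNA, varied little within each genotype, at 99.0 and 99.4 CPM in WT and 83.6 and 84.2 CPM in cKO. Its log2 fold change was -0.24 (SE 0.09, unadjusted p = 0.00656, adjusted p = 0.109, DESeq2), and it stayed between -0.26 and -0.23 without single libraries. Over the alternative fits with all 4 libraries its adjusted p ranged from 0.0847 to 0.567. Adar overlaps Chrnb2 on the opposite strand. Zbp1, a sensor of Z-form nucleic acids, was at 14.8 and 13.9 CPM in WT and at 11.6 and 12.6 CPM in cKO, lower in both (-0.25, SE 0.18, adjusted p = 0.604).

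The genes of ISG15 conjugation and the ubiquitin ligases were grouped together, with Parp9 and Parp14 placed beside them. Among these, Usp18 had the highest fold change of any member with at least 1 CPM. USP18 removes ISG15 from proteins and also restrains signalling at the type I interferon receptor. Its level was 3.003 and 2.01 CPM in WT and 5.72 and 3.72 CPM in cKO, without overlap (0.91, SE 0.37, 95% interval 0.19 to 1.64, adjusted p = 0.169, DESeq2). Without single libraries the value ranged from 0.58 to 1.22. Its adjusted p over the alternative fits with all 4 libraries ran from 0.00631 to 0.500. The lowest came from edgeR without a filter on low counts, an alternative added after the data were seen that called 7.21% of all genes, and it was the 1 fit in which any member passed. Isg15 itself, the ubiquitin-like modifier, was at only 0.516 and 0.637 CPM in WT and 0.729 and 0.755 CPM in cKO, from 53 fragments in WT and 58 in cKO. The depth-adjusted ratio of these fragments was 1.28 (95% interval 0.865 to 1.89, counting error only), so no difference was detectable at this depth. Herc6, the ISG15 ligase of the mouse, was at 16.0 and 15.6 CPM in WT and 18.8 and 19.5 CPM in cKO (0.27, SE 0.16), without overlap. Trim25, Parp14 and Dtx3l had values between -0.09 and -0.02 with overlapping libraries. Parp9 was at 0.10 and Trim30a at -0.15. Parp9 and Dtx3l overlap on opposite strands, and whether the counts used strand was not stated.

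The 2′-5′ oligoadenylate synthetases, which make the activator of RNase L in response to double-stranded RNA, had the lowest summed level of all roles. Their sum over 5 genes was 7.47 and 5.44 CPM in WT and 8.87 and 8.01 CPM in cKO, above WT in both cKO libraries (log2 ratio of the means 0.39). None of the 4 with at least 1 CPM passed. Oasl1, a relative without the enzymatic activity that limits Irf7 translation, was at 1.87 and 1.66 CPM in WT and 3.04 and 2.44 CPM in cKO (0.63, SE 0.42, adjusted p = 0.548, DESeq2). Oas2, Oas3 and Oasl2 had overlapping libraries, with WT replicate 1 above WT replicate 2 in each, and DESeq2's independent filtering gave them no adjusted p. Oas1a was at 0.390 to 0.629 CPM in all libraries. Its near copy Oas1g shares sequence with it, so the split of fragments between them is uncertain.

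Other antiviral effectors were mostly at a few CPM. Rsad2, which encodes viperin, an enzyme that makes a chain-terminating nucleotide, was at 1.99 and 1.51 CPM in WT and 2.78 and 2.67 CPM in cKO (0.63, SE 0.42, adjusted p = 0.548, DESeq2). Rtp4 was at 3.61 and 2.90 CPM in WT and 4.42 and 3.95 CPM in cKO (0.36, SE 0.33, adjusted p = 0.725), or 0.22 without WT replicate 2. In both genes the cKO libraries lay above the WT libraries. Bst2, which encodes tetherin, a protein that holds budding virus at the cell surface, was the opposite case, at 5.11 and 3.43 CPM in WT and 3.25 and 2.94 CPM in cKO (-0.46, SE 0.35, adjusted p = 0.613). Leaving out WT replicate 1 gave -0.16, and leaving out WT replicate 2 gave -0.72. BST2 is also a surface marker of mouse plasmacytoid dendritic cells, and Siglech, a defining marker of those cells, was at 2.37 and 1.21 CPM in WT and at 0.416 and 0.729 CPM in cKO. The 7 plasmacytoid dendritic markers as a list summed to 866 and 923 CPM in WT and 976 and 944 CPM in cKO. Nearly all of it came from Ccr9 and Tcf4, which thymocytes also express. None of the 7 passed the test, but DESeq2's independent filtering gave no adjusted p to Siglech, Klk1, Cox6a2 and Spib. Siglech had a log2 fold change of -1.64 (unadjusted p = 0.00927, DESeq2). Its adjusted p was 0.239 by edgeR and 0.00611 by edgeR without a filter on low counts. In 2 of the 7, Siglech and Bst2, the cKO libraries were below the WT libraries, and in 1, Tcf4 (0.22), above. Over all genes with at least 1 CPM, 24% were below and 24.9% above in this way. Bst2, the member described, is itself on that list. The dendritic cell marker Cd74 passed the test as lower in cKO (-0.75, adjusted p = 0.0331, DESeq2) but not by edgeR (adjusted p = 0.211) or voom (adjusted p = 0.213), and the 7 dendritic markers summed to 24.4 and 33.5 CPM in WT and 16.9 and 21.9 CPM in cKO. In 3 of these 7 the cKO libraries were below the WT libraries and in 2, Xcr1 and Zbtb46, above, beside the same 24% and 24.9%. The part of such cells in the Bst2 level was not tested. Mx2 and Samd9l had overlapping libraries, with log2 fold changes of 0.12 and -0.02.

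The effectors below 1 CPM rested on few fragments. Ifit1, whose product binds viral RNA lacking a host cap, had 41 fragments in WT and 63 in cKO, a depth-adjusted ratio of 1.79 (95% interval 1.19 to 2.73). Mx1, of the family of dynamin-like GTPases, had 16 and 30 fragments, a ratio of 2.19 (1.16 to 4.30). Ifi44 had 5 in WT, 4 and 1 by library, and 29 in cKO, 15 and 14 by library, a ratio of 6.77 (2.59 to 22.4). Its fitted log2 fold change of 2.72 became 4.16 when WT replicate 1 was left out and 1.99 when WT replicate 2 was. For Mx1, at 1.11, the same gave 1.63 and 0.71. These intervals cover counting error only and leave out the spread between mice. In 4 of the 6 members below 1 CPM the genotypes did not overlap and cKO was higher (66.7%), as in 17.7% of the 2243 genes of that level, and Ifit3 and Oas1a were the ones that overlapped. In the DESeq2 fit their unadjusted p-values ran from 0.0575 for Ifi44 to 0.950 for Oas1a.

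Of the other induced genes, Sp100, a component of nuclear bodies, was the member with the most fragments, at 254 and 229 CPM in WT and 259 and 261 CPM in cKO (0.10, SE 0.08). Its value ran from 0.03 to 0.17 when single libraries were left out. Without Sp100 the members' sum was 796 and 750 CPM in WT and 772 and 725 CPM in cKO. Ifi35 was at 23.5 and 20.004 CPM in WT and 17.7 and 16.6 CPM in cKO, below WT in both (-0.35, SE 0.16, unadjusted p = 0.0307, adjusted p = 0.276, DESeq2). Lgals3bp had a value of 0.17 and Xaf1 of -0.05. When single libraries were left out, Lgals3bp ran from 0.04 to 0.31, and Xaf1 from -0.14 to 0.05, which turned its sign.

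The interferon-inducible GTPases, which attack the vacuoles of intracellular pathogens, had values on both sides of 0. Igtp, an immunity-related GTPase at chr11:58199556-58207592 on the plus strand, was at 80.6 and 71.0 CPM in WT and 63.2 and 61.4 CPM in cKO. Both cKO libraries were below both WT libraries (-0.29, SE 0.10, 95% interval -0.49 to -0.08, unadjusted p = 0.00619, adjusted p = 0.105, DESeq2). Over the alternative fits with all libraries its adjusted p ranged from 0.0684 to 0.487. Irgm1, its regulatory relative, was at 14.9 and 15.2 CPM in WT and 13.1 and 14.1 CPM in cKO (-0.15, SE 0.17). Of the guanylate-binding proteins among the members, Gbp3 was at 2.63 and 2.05 CPM in WT and 4.01 and 2.67 CPM in cKO (0.51, SE 0.39, adjusted p = 0.633), or 0.20 without cKO replicate 1 and 0.77 without cKO replicate 2. Gbp7 had a value of 0.19 and Gbp2 of 0.10, which turned to -0.05 without WT replicate 1 and to -0.14 without cKO replicate 1. Igtp took most of the summed level of the 5 GTPases, which was 111 and 103 CPM in WT and 96.4 and 91.8 CPM in cKO (log2 ratio -0.18). These families hold close copies, whose shared fragments may be split unevenly.

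The members were also described by level. Among the 16 members between 1 and 10 CPM the median log2 fold change was 0.34, beside 0.03 over all 3472 genes of that range, and 13 had the higher mean in cKO, where 54.2% of those genes did. Among the 19 members at 10 CPM or more the median was -0.02 and 6 had the higher mean in cKO, where 48.5% of genes at that level did. Without overlap, cKO was higher in 7 of the 16 (43.8%, against 25% of all genes of that range) and lower in 1 (6.25%, against 19.8%). Among the 19 it was higher in 6 (31.6%, against 24.9% of all genes at that level) and lower in 7 (36.8%, against 25.8%). The spread between WT libraries was of the same size: WT replicate 1 was above WT replicate 2 in 14 of the 16, with a median log2 ratio of 0.34, and in 29 of all 35, where it was in 49.3% of all genes. Without WT replicate 2 the median of the 16 was 0.19, and without WT replicate 1 it was 0.52. Without cKO replicate 1 it was 0.20. For the 19 members at 10 CPM or more the median ran from -0.13 without cKO replicate 1 to -0.01 without WT replicate 1, and 7 to 9 had the higher value in cKO when single libraries were left out. WT replicate 1 was also the library set apart by Xist, and the part of that difference between mice in the members' levels was not tested.

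**Figure D4:**
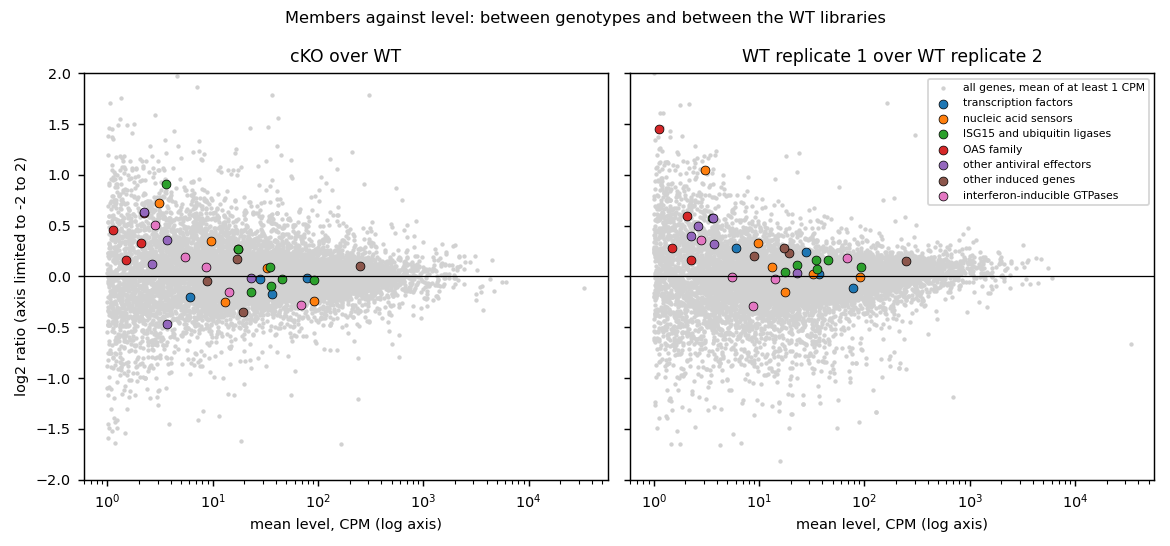
log2 ratios against mean level (CPM, log axis) for the 35 members (colours by role) over all 11625 genes (grey), for cKO over WT by DESeq2 (left) and for WT replicate 1 over WT replicate 2 from CPM (right). Members under 10 CPM lie mostly above 0 in both panels, 13 of 16 on the left and 14 of 16 on the right. Of the 19 at 10 CPM or more, 6 lie above 0 on the left (median -0.02) and 15 on the right (median 0.09).

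Members with and without a motif were set side by side. The 13 members with an ISRE core and at least 1 CPM had a median log2 fold change of 0.10, with 8 higher in cKO and values from -0.46 to 0.63. The 14 with a window but no ISRE core had a median of -0.02, with 5 higher. The 8 without a window, Usp18 and Dhx58 among them, had a median of 0.24, with 6 higher. Over all 17 members with an ISRE core the median level was 5.51 CPM, and over the 15 with a window but none it was 19.4 CPM. Of the 3 members with a GAS alone, Adar and Ifi35 were lower in cKO in both libraries and Irf1 was on both sides. Of the 5 with both motifs, Bst2 and Igtp were lower without overlap, Gbp7 and Eif2ak2 were higher, and Oas1a overlapped. Over all genes 24% were lower and 24.9% higher without overlap.

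The genes upstream of the members were then compared, from a list of 34 genes of interferon production, receptors, signalling and its inhibitors, of which 33 were in the table and 26 had at least 1 CPM. The test called 1 of the 26, Ifngr1 (3.71% of all genes tested were called). Ifngr1, at chr10:19591949-19610227 on the plus strand, encodes the ligand-binding chain of the interferon gamma receptor. It was at 254 and 283 CPM in WT and rose to 382 and 398 CPM in cKO (268 ± 20.7 and 390 ± 11.6, SD, n = 2 each). Its log2 fold change was 0.54 (SE 0.08, 95% interval 0.37 to 0.70, adjusted p = 3.55e-08, DESeq2), higher in 2 of 2 cKO libraries than in either WT library. It passed in all 10 alternative fits with every library, with adjusted p from 7.8e-13 to 0.0417, the highest by edgeR, and in all 4 fits without a library, with values from 0.45 to 0.62.

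The other receptor chains did not pass. Ifngr2, the signal-transducing chain, was at 106 and 113 CPM in WT and 148 and 121 CPM in cKO (0.29, SE 0.11, adjusted p = 0.0951, DESeq2), or 0.15 without cKO replicate 1 and 0.43 without cKO replicate 2. Ifnar2 was at 48.4 and 52.1 CPM in WT and 63.9 and 59.3 CPM in cKO (0.29, SE 0.11, adjusted p = 0.115). In both genes the cKO libraries were above the WT libraries, while Ifnar1 was level, at 140 and 146 CPM in WT and 144 and 147 CPM in cKO (0.02, SE 0.08). Il10rb, a chain of the type III interferon receptor, was at 17.2 and 17.8 CPM in WT and 19.7 and 20.05 CPM in cKO (0.18, SE 0.15). The kinases Jak1, Jak2 and Tyk2 had values of 0.07, 0.03 and -0.17. Among all 26 genes 9 were higher and 17 lower, and the median was -0.05, where 50.2% of all genes were higher. At an unadjusted p under 0.05 there were 5, where 13.5% of all genes were, with Ifngr1, Ifngr2 and Ifnar2 higher and Myd88 (-0.60) and Ikbke (-0.32), which act in interferon induction, lower. When single libraries were left out, Myd88 ran from -0.90 to -0.35 and Ikbke from -0.48 to -0.18. Of the interferon genes themselves, Ifna4, Ifnb1, Ifnk and Ifnl3 had 0 fragments in every library, and Ifng was at most at 0.117 CPM. The counts say nothing of interferon made by other thymic cells.

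**Figure D5:**
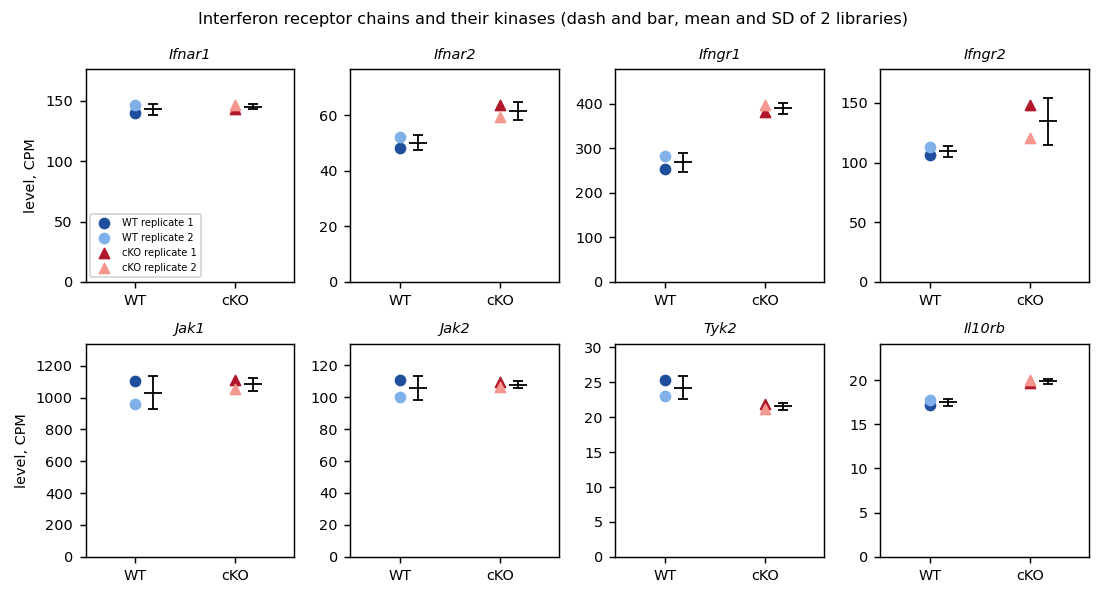
Level in CPM of the interferon receptor chains and their kinases in each library (points), with the mean and SD of 2 libraries per genotype (dash and bar); each panel has its own y axis from 0. Ifngr1 is the panel with the clearest gap, 254 and 283 CPM in WT against 382 and 398 CPM in cKO, and Ifnar1 shows none.

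A list of 40 further interferon-induced genes was tested beside the members. Of its 32 genes with at least 1 CPM, 0 passed (3.71% of all genes tested did), 5 were at an unadjusted p under 0.05, 1 higher and 4 lower in cKO (13.5% of all genes were, 7.2% higher and 6.31% lower), and 0 passed by edgeR or voom, which called 0.499% and 0.525% of all genes. The list had 21 genes higher and 11 lower, with a median log2 fold change of 0.04. The genes nearest to the threshold, named after their values were seen, were both GTPases with lower levels in cKO. Gbp4 was at 103 and 99.7 CPM in WT and 79.2 and 86.9 CPM in cKO (-0.29, SE 0.10, adjusted p = 0.0575, DESeq2). Irgm2, the neighbour of Igtp on chromosome 11, was at 21.7 CPM in both WT libraries and at 15.6 and 16.1 CPM in cKO (-0.46, SE 0.15, adjusted p = 0.0668).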

How the data were processed

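TTchem-seq libraries of DP thymocytes, 2 WT and 2 cKO, were grouped by their titles. The submitters' processing notes name fastp 0.13.1, STAR 2.7.9a, featureCounts 1.6.1 and the build mm10. The authors deposited expected counts per gene over the whole transcript span, of which 8.61% were fractional (10 members). Per the methods, duplicate reads were marked; whether the counts left them out, whether they used strand and how fractions were assigned is not given in the sources used here. Yeast spike-in was not used for scaling. The labels describe poly(A) capture, whereas the methods describe another preparation.

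Counts were rounded. Following the methods, DESeq2 1.42.0 (R 4.3.3) was fitted to all genes without covariates. edgeR 4.0.16 (13802 genes after its filter), limma 3.58.1 (voom) and other settings were alternatives. All tables were made with Python 3.11.15, and the fit was tested on simulated data. The study calls its replicates biological, and the labels do not name the mice. p-values measure only the spread between these libraries.

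Named genes were the 5 highest and 5 lowest separated members, called genes, the Irf factors and Stat2, the RIG-I-like receptors, Isg15, Ifnar1 and Ifngr1, with some items not reported here. Values of further members are given by role. The members, though taken by name, and the lists and tests were chosen with earlier results of these data known.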

Additional observations from a re-analysis of the deposited data

How the results depend on the processing

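No member was called under any alternative listed beforehand: other size factors, edgeR, limma voom, changed filters, or leaving out each library. With the replicate number as a block, 0 members were called; same-numbered libraries did not deviate together (correlation -0.03 over 11625 genes). edgeR without a filter on low counts, added after the data were seen, called 1 member (Usp18, 0.92, adjusted p = 0.00631), 2 pathway genes as increased (Ifngr1 and Ifngr2) and 3 as decreased (Socs1, Ikbke and Myd88), and 2 of the other interferon-induced genes as decreased (Irgm2 and Gbp4). With at least 1 CPM in every library before the fit, 1 of the latter was called. Pathway genes called as increased were 1 to 2 when single libraries were left out, 2 without WT replicate 2. Irf1 ran from -0.24 to 0.18, Irf9 from -0.16 to 0.11 and Ifnar1 from -0.023 to 0.057 without single libraries, which reversed their sign; the cause was not tested. Of the values of single genes, 198 under other settings and 65 without a library kept direction and side of the threshold, and a further 10 and 13 kept direction but had no adjusted p. Scaling moved the median of all genes by at most 0.0028. Members below 1 CPM rest on 5 to 66 fragments per genotype.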
